A study of Sus scrofa with 16 samples.

Results

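The genes of fatty acid oxidation and ketogenesis were read on one-colour Agilent porcine arrays of liver and colonic mucosa from pigs fed corn starch (CS) or raw potato starch (RPS). The members were PPARA, CPT1A, CPT2, ACADM, ACADL, HADHA, HADHB and PPARGC1A, and their probes were those that carry the symbol as gene name or in brackets in the probe description. This rule found 26 of the 43603 probes, for 6 of the 8 genes. CPT1A had 6 probes, ACADM 7, ACADL 6, HADHA 3, and PPARA and CPT2 2 each. HADHB had 0. PPARGC1A also had 0 by the rule, but 2 probes carry its older symbol PPARGC-1, which the RefSeq table of the pig assembly Sscrofa11.1 lists as a synonym, and their values are given separately and are not among the 26.

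The pigs were male Duroc × Landrace × Large White crosses (barrows), entered the trial at 70 days of age and were killed at 170 days. By the methods of the study, feed was withheld before slaughter. Purified CS made up 230 g/kg of the control diet and RPS took its place in the other diet, and from 120 days of age the amount was 280 g/kg in both. Each diet was represented by 4 pigs in liver and 4 in colonic mucosa, 1 array per sample and 16 arrays in all. The labels do not state whether liver and colonic samples of the same number come from the same pig, and the colonic samples are whole mucosa with all its cell types.

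Long-chain fatty acids enter mitochondria bound to carnitine. CPT1A, the liver form of carnitine palmitoyltransferase 1 on the outer mitochondrial membrane, makes the acylcarnitine and is held to be the main control point of the pathway, and CPT2 on the inner membrane returns the acyl group to CoA. The acyl-CoA dehydrogenases ACADM (medium chain) and ACADL (long chain) open each round of β-oxidation, and the trifunctional protein, with HADHA as its alpha and HADHB as its beta subunit, carries out the later steps for long chains. In the liver the acetyl-CoA that results can be turned into ketone bodies, and in the colon the epithelium is known to burn butyrate from bacterial fermentation. PPARA is the nuclear receptor that fatty acids activate in the liver, and PPARGC1A is a coactivator that works with it.

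Each probe is an oligonucleotide of 60 bases. Those printed here are a selection. They are 4 of the CPT1A probes that differed between the diets in the liver, spread along the transcript, and 3 of the ACADM probes. PPARA, ACADL and HADHA have 1 each. Neither the brightest CPT1A probe, A_72_P403023, nor the ACADM probe of smallest p in the liver, A_72_P601403, is among them. The printed probes are written 5′ to 3′ in the sense of the transcript as the scanner files give them. By the files' numbering along the transcript, the CPT1A probes start at bases 120, 673, 1374 and 2273, the ACADM probes at 1128, 1190 and 1219, the PPARA probe at 1216, the ACADL probe at 1192 and the HADHA probe at 1986.
CPT1A, A_72_P409728: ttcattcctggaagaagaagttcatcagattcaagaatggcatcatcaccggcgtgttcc
CPT1A, A_72_P479795: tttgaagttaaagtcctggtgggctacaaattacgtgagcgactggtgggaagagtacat
CPT1A, A_72_P443908: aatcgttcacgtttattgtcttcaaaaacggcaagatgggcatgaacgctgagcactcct
CPT1A, A_72_P443903: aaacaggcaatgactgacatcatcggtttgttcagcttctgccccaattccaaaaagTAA
ACADM, A_72_P653622: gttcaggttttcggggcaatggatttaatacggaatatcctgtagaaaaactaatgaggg
ACADM, A_72_P578028: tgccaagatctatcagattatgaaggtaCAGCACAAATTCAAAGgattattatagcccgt
ACADM, A_72_P627490: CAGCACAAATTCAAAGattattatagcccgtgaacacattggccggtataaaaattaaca
PPARA, A_72_P441798: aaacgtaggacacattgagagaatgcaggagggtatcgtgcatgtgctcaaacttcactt
ACADL, A_72_P672943: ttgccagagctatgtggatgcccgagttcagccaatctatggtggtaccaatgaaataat
HADHA, A_72_P223852: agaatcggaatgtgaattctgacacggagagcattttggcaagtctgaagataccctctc
The capitals mark the last 3 bases of CPT1A A_72_P443903, a stop triplet, and a run of 16 bases that ACADM A_72_P578028 and A_72_P627490 share, with another shared run of the same length next to it, which begins at the last capital in A_72_P627490. The other probe pairs that share sequence are ACADM A_72_P601403 and A_72_P607423, with a run of 38 bases, and ACADL A_72_P587126 with A_72_P654401 (26 bases) and with A_72_P642341 (33 bases). Probes of 1 gene read the same transcript pool on the same arrays and are not independent measurements of it.

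Values are log2 signals after background subtraction by the scanner software and quantile normalization, and a difference of 1 is a doubling of signal. A diet difference (RPS minus CS) was called where the unadjusted limma p was under 0.05 and the fold exceeded 1.5. This kind of rule follows the methods of the study. The Benjamini-Hochberg adjusted p over all 43603 probes is given beside it. Between 61.1% and 65.9% of probes were well above background on the liver arrays and between 64.9% and 72.2% on the colonic ones, and 0 spots were saturated. In the colon the diet groups differed in brightness before normalization. The median signal was 56.3 to 70.8 on the CS arrays and 34.2 to 42.5 on the RPS arrays. The share of probes well above background there was 68.8% to 72.2% with CS and 64.9% to 68.1% with RPS. Each group sat on a slide of its own, scanned on its own, so diet and slide cannot be told apart in either tissue. Liver and colon shared no slide, so tissue and slide cannot be told apart either. Hepatocyte markers separated the tissues as labelled, with a mean log2 level over 10 genes between 17.63 and 17.88 in the liver and between 4.19 and 4.70 in the colon. Among the colonic arrays, CS replicate 3 and RPS replicate 2 had the lowest mean level of 8 epithelial markers, 12.41 and 13.31, against 14.39 to 14.99 on the other colonic arrays.

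In the liver, CPT1A was lower with the RPS diet at all 6 of its probes, by 2.22-fold to 2.78-fold at the 5 that were measured above background in both groups, and ACADM was higher at all 7 of its probes, by 1.48-fold to 1.77-fold. Of the 26 member probes 8 were called in the liver, 6 lower (all of CPT1A) and 2 higher (both of ACADM). Of all probes 3.56% were called, 1.76% lower and 1.8% higher. None of the 8 passed adjustment over all probes with limma, where 1 probe of the whole array did, and the adjusted p of the members ran from 0.342 to 0.998. Of the members 9 had an unadjusted p under 0.05, beside 7.59% of all probes, and 4 had no overlap between the diets, beside 4.45%. The median difference over the 26 probes was -0.41, beside -0.00 over all probes. PPARA, CPT2, ACADL and HADHA had no called probe in the liver.

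**Figure D1:**
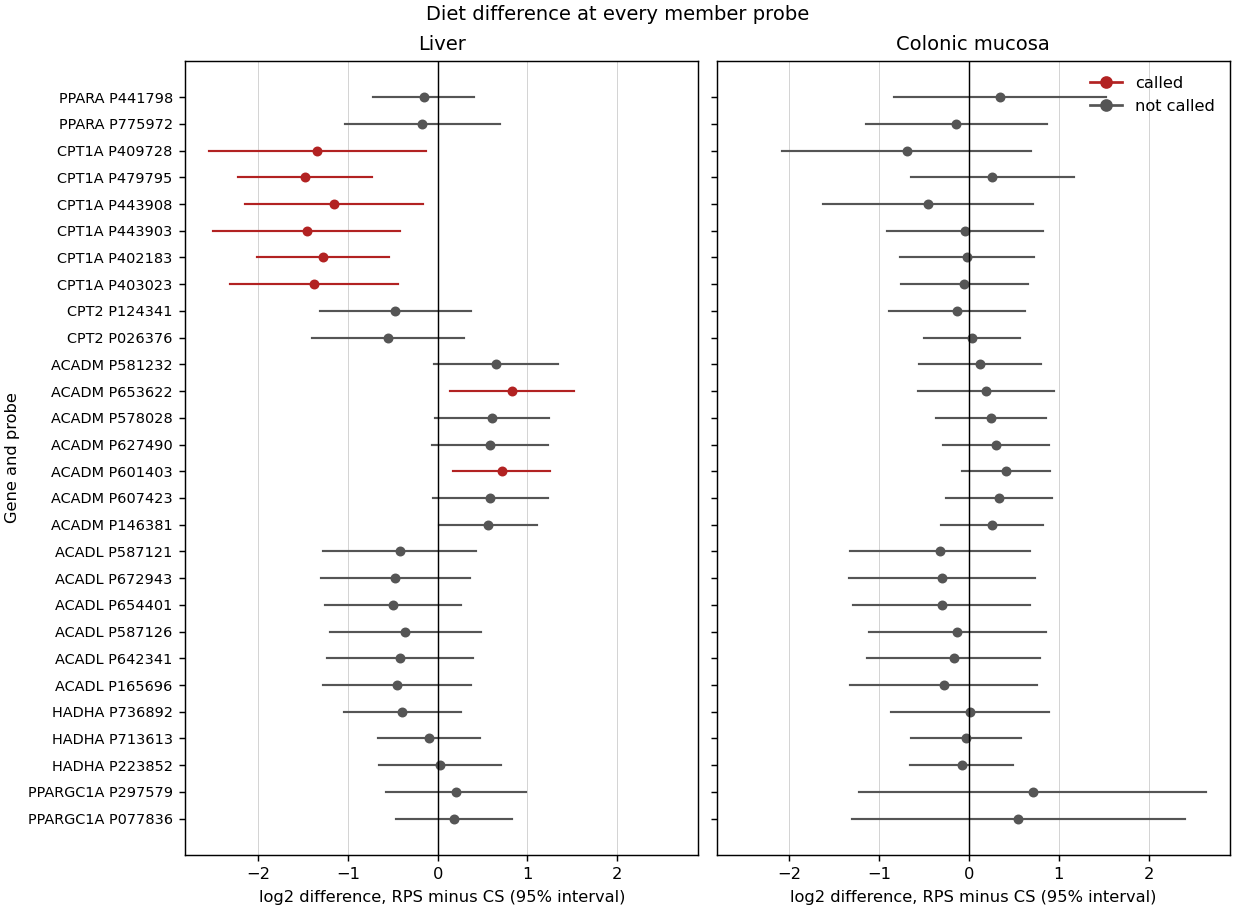
Difference between the diets (RPS minus CS, log2 scale, with 95% interval from limma) at the 26 member probes and the 2 probes under the older symbol of PPARGC1A, in liver (left) and colonic mucosa (right). Red marks called probes, which are the 6 CPT1A probes and 2 ACADM probes in the liver, and 0 member probes in the colon.

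The CPT1A probe of brightest signal, A_72_P403023, read 11.61, 12.37, 13.55 and 12.73 in the 4 livers of the CS group and 11.16, 10.93, 10.98 and 11.67 in those of the RPS group. CS replicate 1 was the lowest of its group and lay just under the highest RPS liver, so the groups overlapped by that pair. The CS livers had a mean of 12.56 ± 0.81 (SD, n = 4). The RPS livers had a mean of 11.19 ± 0.33 (SD, n = 4). The log2 difference was -1.38 (SE 0.40, 2.60-fold lower, 95% interval -2.31 to -0.44), with an unadjusted p of 0.00976 in limma, an adjusted p of 0.489, and p = 0.0571 in the exact two-sided permutation test.

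The CPT1A probe of smallest p, A_72_P479795, read 5.20, 6.29, 6.39 and 6.29 with CS and 4.64, 4.05, 5.03 and 4.55 with RPS. All RPS livers lay under all CS livers. The difference of -1.48 (SE 0.32, 2.78-fold lower) had an unadjusted p of 0.00211 and an adjusted p of 0.342 in limma, and p = 0.0286 in the exact permutation test, the smallest that 4 arrays against 4 allow. With normexp background correction the difference was -0.54 and was not called.

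At A_72_P443903, the probe that ends on the stop triplet, the CS livers read 9.53, 9.98, 11.74 and 10.48 and the RPS livers 9.02, 8.81, 8.78 and 9.29. The groups did not overlap, and the CS values were spread over a wider range than the RPS values, with replicate 3 at the top as at A_72_P403023. The difference was -1.46 (SE 0.45, 2.75-fold lower), with an unadjusted p of 0.0126 and an adjusted p of 0.512 in limma. A_72_P402183 differed by -1.27 (SE 0.31) and A_72_P443908 by -1.15 (SE 0.42), both without overlap. Of all probes, 2.2% had every RPS liver under every CS liver, and of the 6 CPT1A probes 4 did.

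The sixth CPT1A probe, A_72_P409728, near the start of the transcript, was dim. It was well above background on 3 of the 4 CS livers and on 0 of the 4 RPS livers (adjusted p of the limma fit 0.608). Only an approximate bound can be given. With RPS values raised at least to the lowest signal well above background on their arrays, the CS mean was 1.5-fold higher. That mean includes the CS liver that was not well above background. With normexp background correction the difference was -0.15, so the bound depends on the processing.

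The 3 probes A_72_P443903, A_72_P402183 and A_72_P403023 were called under each of the 16 alternative settings and left-out arrays, with differences between -1.76 and -0.95. With normexp background correction 3 of the 6 were called, and the 6 differences ran from -1.31 to -0.15. The dim probe and A_72_P443908 lost their call in several fits with 1 array left out, so that 4 of the 6 remained called without RPS replicate 1 or RPS replicate 4, and 5 when CS replicates 3 or 4, or RPS replicate 2, were the ones left out. Leaving out CS replicate 3 moved A_72_P443908 to -0.75.

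**Figure D2:**
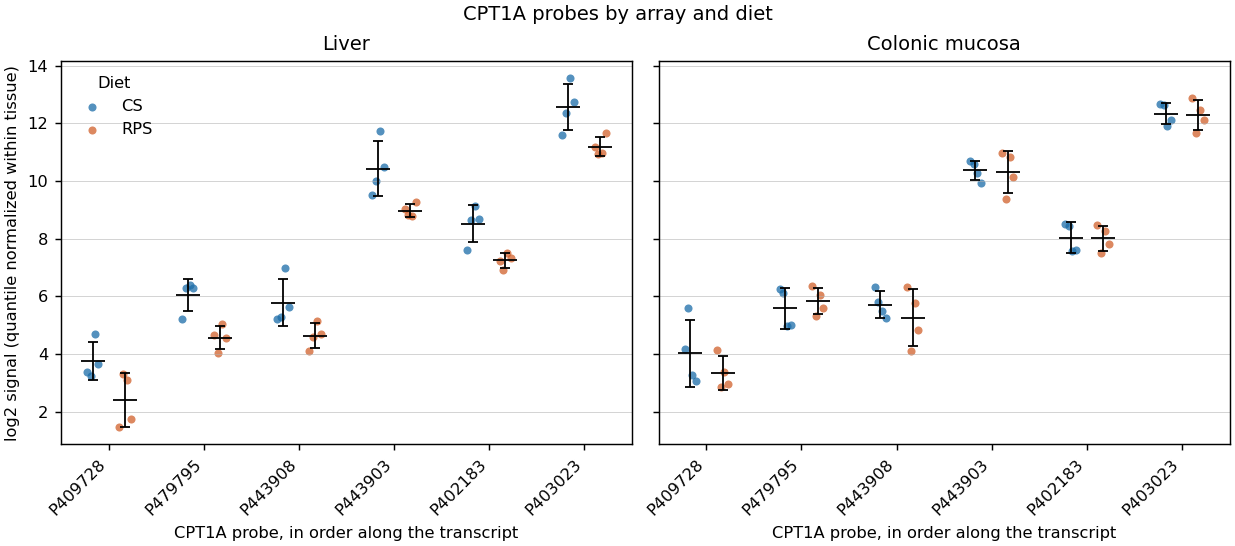
Log2 signal of the 6 CPT1A probes on each array, CS in blue and RPS in orange, liver on the left and colonic mucosa on the right; black marks are the mean and SD of 4 arrays. In the liver the RPS mean lies below the CS mean at each probe, with no overlap between arrays at 4 of the 6, and in the colon the ranges of the diets overlap at each probe.

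CPT2, which follows CPT1A in the carnitine shuttle, was not called. At its brighter probe, A_72_P026376, the CS livers read 9.54, 10.37, 10.49 and 10.72 and the RPS livers 10.35, 9.69, 8.91 and 9.92. The groups overlapped, with CS replicate 1 under 3 of the RPS livers. The difference was -0.56 (SE 0.36, 95% interval -1.40 to 0.29) and that of the other probe -0.47 (SE 0.36), with adjusted p of 0.788 and 0.832 in limma. Without RPS replicate 1, the highest RPS liver at both probes, A_72_P124341 was called at -0.76.

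ACADM, the medium-chain acyl-CoA dehydrogenase, lay the other way. At A_72_P601403 the CS livers read 11.58, 12.05, 12.61 and 11.69 and the RPS livers 12.88, 12.56, 12.56 and 12.77. The CS livers were spread over about 1 log2 unit and the RPS livers were close together, and CS replicate 3 reached into the RPS range. The difference was 0.71 (SE 0.23, 1.64-fold higher, 95% interval 0.17 to 1.25), with an unadjusted p of 0.0165 and an adjusted p of 0.532 in limma, and p = 0.0857 in the exact permutation test.

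The other called ACADM probe, A_72_P653622, read 10.59, 11.08, 11.89 and 10.66 with CS and 11.98, 11.84, 11.56 and 12.14 with RPS. CS replicate 3 again lay among the RPS livers. The difference was 0.83 (SE 0.30, 1.77-fold higher) with an unadjusted p of 0.0255 and an adjusted p of 0.58 in limma. The brightest probe, A_72_P146381, had an unadjusted p of 0.0445 but a fold change of 1.48, under the threshold, and the 4 others differed by 0.59 to 0.64 with an unadjusted p between 0.0594 and 0.0689. No ACADM probe separated the groups without overlap.

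The count of called ACADM probes depended on single livers. CS replicates 1 and 4 were the low pair of the CS group at all 7 probes, and without CS replicate 1 no ACADM probe was called by limma (differences 0.41 to 0.67), although ACADM A_72_P601403 then had a difference of 0.57. Without CS replicate 3 all 7 were called (0.72 to 1.11), and without CS replicate 2 6 were. When CS replicate 4, or RPS replicates 1 or 4, were the ones left out, 1 was called. Scaling by the 75th percentile of an array called 7, and the direction was higher with RPS at all 7 probes under all 16 alternatives.

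**Figure D3:**
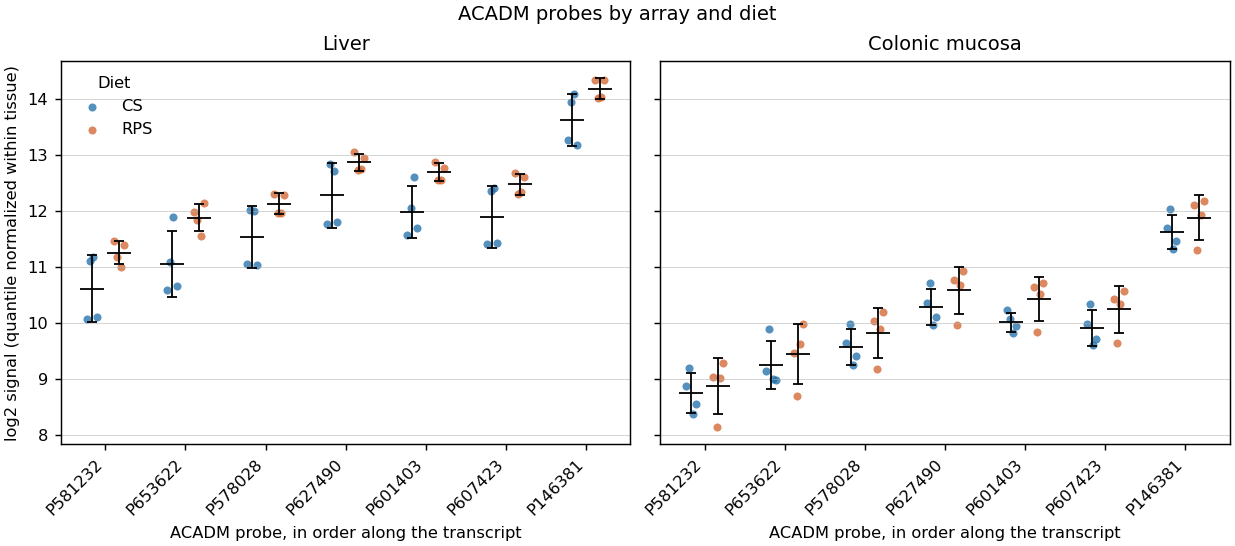
Log2 signal of the 7 ACADM probes on each array, CS in blue and RPS in orange, liver on the left and colonic mucosa on the right; black marks are the mean and SD of 4 arrays. In the liver 2 CS arrays lie below the RPS arrays at each probe while 1 or both of the others reach the RPS range; the tissues were normalized separately here.

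The long-chain dehydrogenase ACADL did not share the direction of ACADM. Its 6 probes differed by -0.50 to -0.36 in the liver, with an unadjusted p between 0.162 and 0.347, and each overlapped between the diets. HADHA, the alpha subunit of the trifunctional protein, differed by -0.40, -0.10 and 0.03 at its 3 probes, with an unadjusted p between 0.196 and 0.933. The nuclear receptor PPARA differed by -0.15 and -0.17, with 95% intervals that together run from -1.03 to 0.69. The 2 probes of the coactivator PPARGC1A differed by 0.18 and 0.20.

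The mean levels of the cell type marker lists had overlapping ranges in the 2 diets in the liver. The mean level of the 10 hepatocyte markers ran from 17.63 to 17.88 with CS and from 17.71 to 17.86 with RPS. The 8 leukocyte markers ran from 8.01 to 8.27 and from 8.06 to 8.66, and the 3 fibroblast markers from 8.71 to 9.34 and from 8.06 to 8.97. The 3 endothelial markers ran from 10.38 to 10.77 with CS and from 9.99 to 10.50 with RPS, and PECAM1 (-0.33), VWF (-0.41) and CDH5 (-0.32) were each lower in sign with RPS. PECAM1, the monocyte marker CD14 (-0.28) and the smooth muscle marker DES (-0.16) were lower with RPS without overlap, as for 2.2% of all probes. Their adjusted p was 0.46, 0.48 and 0.658 in limma. CD14 is 1 of the 8 leukocyte markers, whose median difference was 0.08. The part of these cell types in the member results was not tested. In whole tissue, fewer cells of a type and less RNA per cell cannot be told apart.

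In the colon, 0 of the 26 member probes were called between the diets by limma, 0 had an unadjusted p under 0.05 and 0 were called by the methods' t-test. Of all probes 2.94% were called (1.62% higher and 1.32% lower) and 5.42% had an unadjusted p under 0.05. No member separated the diets without overlap, as 6.52% of all probes did (5.08% of all probes with RPS higher). The median difference of the 26 was -0.04, beside 0.01 over all probes. CPT1A A_72_P403023 read 12.68, 12.63, 11.92 and 12.11 in the colonic mucosa of the CS group and 12.89, 11.65, 12.47 and 12.12 in that of the RPS group, where the lowest and the highest array were both of the RPS group. Its difference was -0.05 (SE 0.30, 95% interval -0.76 to 0.65). The dim CPT1A probe had the largest difference of the gene, -0.69, and was well above background on 2 of the 4 RPS arrays.

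All 7 ACADM probes were higher with RPS in the colon, by 0.12 to 0.41. A_72_P601403 read 10.22, 10.06, 9.82 and 9.95 with CS and 10.63, 9.84, 10.51 and 10.71 with RPS. RPS replicate 2 lay among the CS arrays and the 3 other RPS arrays above them, and without it the probe was called, at 0.61 with an unadjusted p of 0.00299. This array was also 1 of the 2 with the lowest epithelial markers. Without both of those arrays, 0 member probes were called, and ACADM differed by 0.24 to 0.55. ACADL differed by -0.33 to -0.13, HADHA by -0.08 to 0.01, CPT2 by -0.13 and 0.03 and PPARA by -0.14 and 0.34, with an adjusted p of 0.986 or more in limma.

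Within the colon, members differed among arrays in opposite ways along the epithelial markers. The brightest ACADL probe, A_72_P165696, read 9.36, 9.53, 10.77 and 9.98 with CS and 9.42, 10.53, 8.77 and 9.78 with RPS, so that CS replicate 3 and RPS replicate 2, the arrays of lowest epithelial marker level, were the highest. The PPARGC1A probe A_72_P077836 read 10.19, 10.50, 7.79 and 10.50 with CS and 10.99, 8.61, 10.96 and 10.61 with RPS, and the same 2 arrays were the lowest. At the brightest ACADM probe they read 11.32 and 11.30, the lowest of their groups. Between the diets in the colon, the mean level of the 3 smooth muscle markers did not overlap. It ran from 11.59 to 11.91 with CS and from 11.22 to 11.56 with RPS. The ranges of the other marker lists overlapped. The fibroblast marker COL1A2 (-0.72) and the leukocyte marker CD4 (-0.99) were called lower with RPS, as were 1.32% of all probes. Their adjusted p was 0.803 and 0.756 in limma, and no other marker was called at its brightest probe. The part of the cell makeup in the member values was not tested.

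The difference of the diet effect between the tissues was tested directly in a fit of all 16 arrays. No member probe passed adjustment in limma, where 1 probe of the array did (0.00229%). Without adjustment, 4 of the 26 had a p under 0.05, all of CPT1A, beside 4.72% of all probes. Differences of the effects are signed, the colonic effect minus the liver effect. At A_72_P479795 the difference was 1.72 (SE 0.52, unadjusted p 0.00549, adjusted p 0.751). Fitted within each tissue, the effect of this probe was -1.48 in the liver and 0.26 in the colon. At A_72_P403023 the difference was 1.23 (SE 0.51, unadjusted p 0.0313, adjusted p 0.997), with effects of -1.38 in the liver and -0.05 in the colon. The group means of A_72_P403023 were 12.61 in the liver with CS, 12.27 and 12.21 in the colon with CS and RPS, and 11.31 in the liver with RPS. For ACADM the difference of the effects was between -0.59 and -0.20, with an adjusted p of 0.999 at all 7 probes.

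Between the tissues, most of the pathway was lower in the colonic mucosa than in the liver. Here a call needed an adjusted p under 0.05 in limma and a fold change above 1.5, and 19 of the 26 member probes were called lower in the colon and 0 higher, beside 18.7% lower and 23.4% higher over all probes. Of the member probes, 3 were higher in the colon in sign, all of CPT1A, and none of them had an unadjusted p under 0.05. The median difference was -1.89, beside 0.01 over all probes. For 14 of the 26 every colonic array lay under every liver array, which held for 12.2% of all probes, and 26.8% separated the tissues in either direction.

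PPARA had the largest differences of the members in these values. At A_72_P441798 the 8 liver arrays had a lowest value of 6.55, a median of 7.08 and a highest of 7.57, and the 8 colonic arrays 2.61, 3.79 and 5.11. The tissues did not overlap at either probe. The differences were -3.30 (SE 0.29, 9.88-fold lower) and -3.15 (SE 0.29, 8.88-fold lower), with adjusted p of 2.61e-07 and 4.54e-07 in limma. With normexp background correction they were smaller, -1.29 at A_72_P441798 and -1.58 at A_72_P775972, and still called, and the differences of ACADM (-2.26 to -2.17) then exceeded them.

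ACADM was lower in the colon at all 7 probes, by 4.69-fold to 5.51-fold. At its brightest probe the liver arrays had a lowest value of 13.19, a median of 13.99 and a highest of 14.30, and the colonic arrays 11.16, 11.71 and 12.11. No colonic array reached the liver range at any of the 7 probes. The difference at this probe was -2.23 (SE 0.18), and the adjusted p ran from 1.48e-08 to 4.73e-07 over the 7 in limma.

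ACADL was lower by 3.05-fold to 4.14-fold at 6 of 6 probes, 3 of them without overlap. At A_72_P165696 the liver arrays ran from 10.47 through a median of 11.45 to 12.24 and the colonic arrays from 8.58 through 9.48 to 10.61, and only the highest colonic array reached the lowest liver array. Without the 2 colonic arrays of lowest epithelial level the 6 differences were -2.34 to -1.89, against -2.05 to -1.61 with all arrays. CPT2 was lower by 3.32-fold and 3.81-fold without overlap, with adjusted p of 1.13e-05 and 1.35e-05. With normexp background correction the 2 CPT2 differences were -1.50 and -1.03.

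HADHA differed less, by -0.57, -0.84 and -0.93. Of its 3 probes 2 were called (1.79-fold and 1.91-fold lower), and A_72_P736892 had an adjusted p of 0.0641. The tissues overlapped at all 3. Of the PPARGC1A probes, A_72_P297579 was called, at -1.23 (adjusted p 0.0389) and A_72_P077836 was not, at -0.83 (adjusted p 0.133), and at both the 2 colonic arrays of low epithelial level were the lowest of the 16.

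CPT1A was the exception among the members. None of its 6 probes was called between the tissues, with differences from -0.28 to 0.31 and adjusted p from 0.332 to 0.955 in limma. At A_72_P403023 the liver arrays had a lowest value of 11.08, a median of 11.74 and a highest of 13.54, and the colonic arrays 11.54, 12.22 and 12.86, so the colonic arrays lay inside the liver range. The 95% interval of this difference was -0.27 to 0.83. The level in the CS livers lay above and that in the RPS livers below the colonic means, as the group means given for this probe show.

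**Figure D4:**
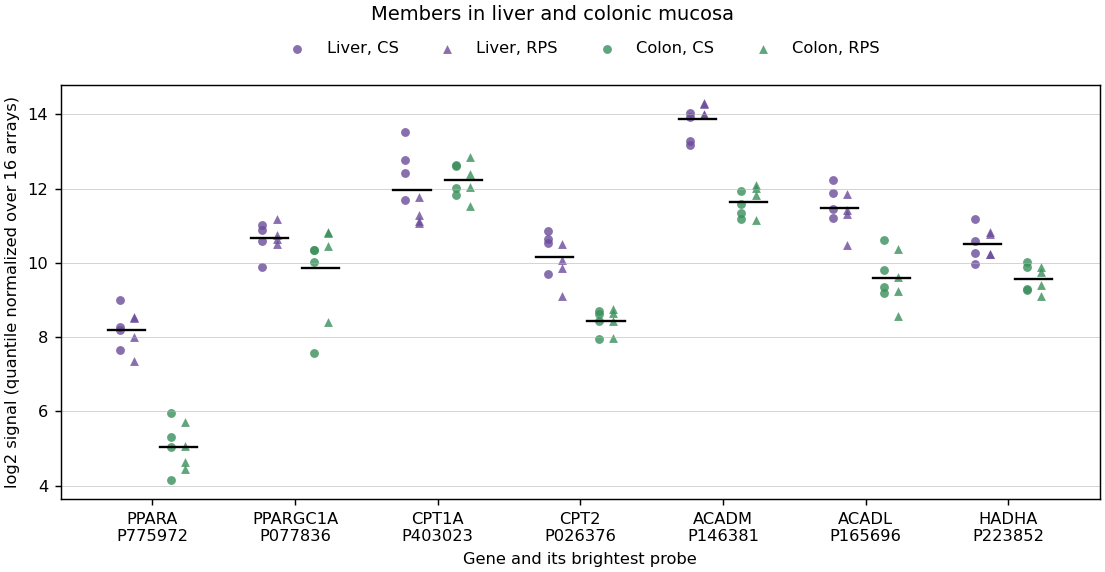
Log2 signal of the brightest probe of each gene on the 16 arrays, liver in purple and colon in green, circles for CS and triangles for RPS; black lines are means of 8 arrays. The liver points stand above the colonic points for PPARA, CPT2 and ACADM without overlap, whereas the colonic points of CPT1A lie inside the range of the liver points.

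Probes of 1 gene varied together to different degrees. Across the 16 arrays, after removal of the group means, probe pairs correlated with r between 0.96 and 1.00 for ACADL, between 0.85 and 1.00 for ACADM, at 0.94 for CPT2, between 0.49 and 0.96 for CPT1A, between 0.46 and 0.93 for HADHA and at 0.47 for PPARA. Between the brightest probes of different genes, CPT1A went with ACADM (r = 0.69) and with CPT2 (r = 0.67), ACADM with HADHA (r = 0.67), and CPT2 ran against ACADL (r = -0.51). These coefficients describe 16 arrays that share slides in sets of 4, and carry no test.

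Of 3289 other genes with a symbol and a probe well above background on all arrays, those whose deviations were most like CPT1A were SEC23A (r = 0.84), LMCD1 (r = 0.83) and SCARA5 (r = 0.81). For CPT2 they were SLC25A15 (r = 0.87), the mitochondrial ornithine carrier, ETFB (r = 0.84), a subunit of the flavoprotein that takes electrons from acyl-CoA dehydrogenases, and FBP1 (r = 0.80), an enzyme of glucose production. ACADM was most like SLC27A3, ARPC1A and ATP5B (r = 0.83, 0.82 and 0.82), ACADL like RNF214, HIST1H2BD and RASAL2 (r = 0.91, 0.87 and 0.86), HADHA like PLIN3, SPRYD3 and ANKFY1 (r = 0.84, 0.83 and 0.81) and PPARA like F3, NES and IHH (r = 0.83, 0.79 and 0.78). These genes were picked as the highest of all those searched. How high r would run by such picking alone was not tested.

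Other genes of the pathway were read from 6 lists of 101 genes, of which 63 had a probe, each at its brightest. In the liver 2 of the 63 were called higher with RPS and 1 lower, beside 1.8% higher and 1.76% lower over all probes. The median difference of the 63 was 0.07. FABP1, the fatty acid binding protein of liver and gut, read 17.15, 17.47, 16.60 and 17.07 with CS and 18.03, 17.72, 17.66 and 17.47 with RPS. Only the top CS liver reached the lowest RPS liver, and the difference was 0.64 (SE 0.20, unadjusted p 0.0145, adjusted p 0.521 in limma). Of the 3 FABP1 probes 2 were called higher. PHYH, which starts the peroxisomal breakdown of phytanic acid, read 15.14, 14.93, 14.54 and 15.24 with CS and 15.95, 15.40, 15.60 and 15.37 with RPS. All RPS livers lay above all CS livers, as for 2.24% of all probes, and the difference was 0.62 (SE 0.19, unadjusted p 0.014, adjusted p 0.519 in limma). Of the 6 PHYH probes 3 were called higher. The remaining call, the receptor RXRG, was not well above background on any liver array.

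The 10 other genes of mitochondrial β-oxidation gave 0 calls in the liver by limma, with a median of 0.25, and the 10 of the carnitine shuttle and acyl-CoA synthesis gave 0 with a median of 0.11.

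In the colon 2 of the 63 were called, both lower with RPS, beside 2.94% of all probes (1.32% lower). ACSL1, which makes long-chain acyl-CoA, read 10.58, 10.69, 10.20 and 10.31 with CS and 9.72, 9.73, 9.44 and 10.00 with RPS. The groups did not overlap, as for 1.43% of all probes in this direction, and the difference was -0.72 (SE 0.16, unadjusted p 0.00278, adjusted p 0.517 in limma). Of the 3 ACSL1 probes 1 was called lower. The peroxisomal transporter ABCD2 was well above background on 2 CS arrays and on 0 RPS arrays, which bounds its fold at at least 1.09.

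Between the tissues 36 of the 63 related genes were called lower in the colon and 14 higher, beside 18.7% lower and 23.4% higher over all probes. The 14 include ABCD2, which no liver array and 2 colonic arrays measured above background and which therefore has no fold. Of mitochondrial β-oxidation, 9 of 10 were lower (median -1.49), with ACADSB at -3.80, DECR1 at -3.49, ECHS1 at -2.44 and ECI2 at -2.33. Of peroxisomal oxidation, 9 of 11 were lower (median -3.16), with CAT at -5.33, ACOX2 at -4.52, PHYH at -4.38 and EHHADH at -4.26. Peroxisomal oxidation thus had the lowest median of the 6 lists.

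The carnitine shuttle and acyl-CoA synthesis list was divided, with 6 of 10 lower, among them ACSL1 at -3.40, ACSL3 at -2.67 and CROT at -2.65, and 2 higher. CPT1B, known as the muscle form of CPT1, was 5.98-fold higher in the colon (difference 2.58, adjusted p 4.31e-08 in limma), and so differed between the tissues where CPT1A did not pass the test. OXCT1, which turns ketone bodies back to their CoA form, was 15.1-fold higher in the colon, and the monocarboxylate transporters SLC16A1 and SLC16A7 were 4.05-fold and 1.99-fold higher.

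Among 16 regulators 3 were higher in the colon and 7 lower. The nuclear receptor PPARG was 104-fold higher there, against the lower PPARA. RXRG was at least 12.1-fold higher, as no liver array measured it above background. The acetyl-CoA carboxylase ACACA was lower by 2.58 and the kinase subunit PRKAA2 by 1.92, both on the log2 scale. Of 12 other PPAR targets 4 were higher and 5 lower: CYP4A21 (-9.02), CYP4A24 (-7.98) and PDK4 (-4.69) lay far lower in the colon, and UCP3, a mitochondrial carrier, was called higher, with signal well above background on 2 of 8 liver arrays. CYP4A21 and CYP4A24 are closely related genes whose probes may read each other's transcripts.

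**Figure D5:**
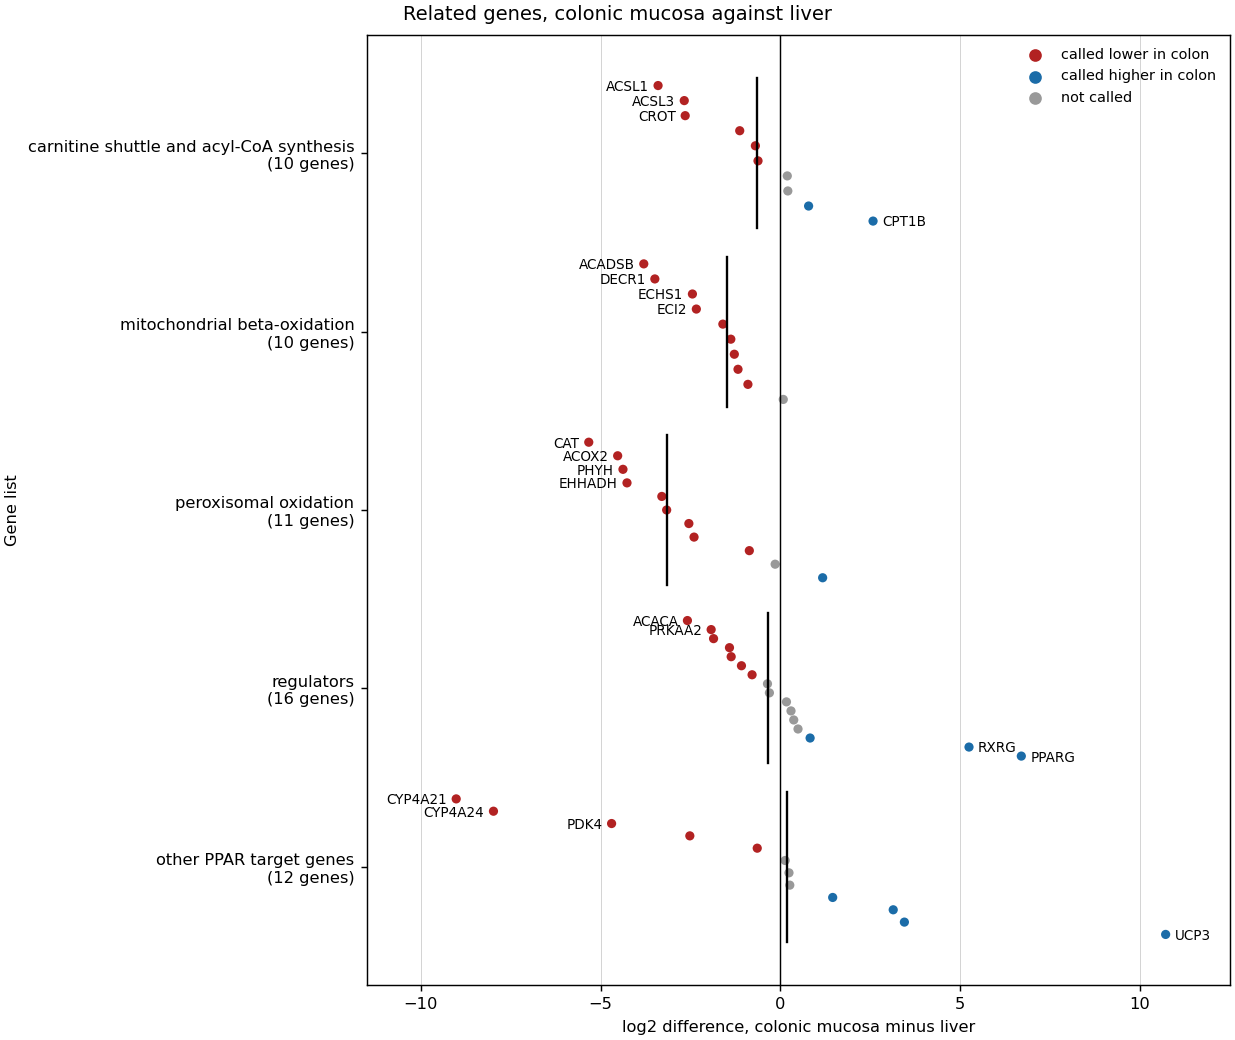
Difference between colonic mucosa and liver (log2 scale) of the related genes in 5 lists, 1 point per gene at its brightest probe, by list; black lines are list medians, red and blue mark genes called lower and higher in the colon, and the 4 genes of largest difference are named. The peroxisomal list has its median at -3.16, the lowest of those shown; the points of RXRG and ABCD2 rest on liver arrays that were not above background, and that of UCP3 on liver arrays of which 2 of 8 were.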

How the data were processed

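Total RNA of liver and colonic mucosa was hybridised to one-colour Agilent porcine arrays. The arrays were scanned, and Feature Extraction (version 10.7 in the submitters' notes) wrote the intensity of each spot, background subtracted and not normalized between arrays. A series table of log2 values that the authors had normalized in GeneSpring was deposited as well and served as an alternative.

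Control spots were dropped, flagged outlier spots became missing values, and quantile normalization of the log2 intensities ran over the 8 arrays of one tissue (diet comparisons) or over all 16 (tissue and interaction), with the spots of a probe averaged, giving 43603 probes. Each contrast was fitted with limma 3.58.1 in R 4.3.3 on all probes, with groups from the labels and Benjamini-Hochberg adjustment over all probes. Exact permutation tests are two-sided. No filter on signal was applied. The fits were checked on simulated data. Figures were drawn with matplotlib 3.10.9. The number of arrays limits the precision. The limma p-values set a difference between groups against the variation among arrays within groups. Arrays of a group share a slide, so variation between slides is not part of it.

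The member genes and the related and marker lists were chosen with earlier results of these data known. A gene with several probes is represented by its brightest. Named beyond the members are the related genes called in a diet comparison, up to 4 genes per list of largest tissue difference, and 3 genes of most similar pattern per member. Some results are not reported here. Tried as alternatives were normexp (offset 50), 75th percentile scaling, one quantile normalization of all 16 arrays, the authors' values, retention of outlier spots, a filter for probes well above background, the methods' t-test, a replicate block, slide as a random block, and each array left out. Leaving out the 2 colonic arrays of lowest epithelial marker level was chosen after seeing the data.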

Additional observations from a re-analysis of the deposited data

Results flagged for a closer look

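In 104 groups of 4 arrays (26 probes in 4 groups), 2 had an outermost value set apart beyond Dixon's critical value, where about 5.2 would be by chance alone. At CPT1A A_72_P479795 the liver of CS replicate 1 read 5.20, with the nearest CS liver at 6.29, and still lay above all RPS livers. At HADHA A_72_P713613 the liver of RPS replicate 1 read 9.08, with the nearest RPS liver at 8.63.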

How the results depend on the processing

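Of the 26 member probes, 8 were called in the liver, and scaling to the 75th percentile gave 13, because 5 more ACADM probes passed. With 1 array left out the liver count lay between 5 and 12, with the low value without RPS replicate 4 and the high one without CS replicate 2 or 3, and the colonic count between 0 and 1. The other liver alternatives gave 7 to 9. The tissue counts were 19 or 20 lower and 0 higher, and 0 probes differed in diet effect between tissues, under all alternatives run. Over the probes and alternatives, 18 of 415 liver differences lost and 20 gained a call, 1 of 442 colonic and 3 of 624 tissue differences gained one, and none that was called changed sign. Of all probes, 0.505% to 4.65% were called in the liver under the alternatives. With the replicate block, 7 liver and 0 colonic member probes were called (ACADM A_72_P653622 lost its call), 19 were lower between the tissues, and it changed no other member call. The block rests on numbers alone: deviations of colonic and liver arrays of the same number correlated with r from 0.16 to 0.33 for CS and from -0.08 to 0.07 for RPS, those of CS and RPS livers from -0.16 to 0.11, and those of CS and RPS colons from -0.51 to 0.55. Slide as a random block in the tissue comparison (correlation -0.05) gave 19, but each slide holds 1 group, so this fit cannot separate slide from group. Signal limits the dim CPT1A probe A_72_P409728, which was above background on 3 of 8 liver arrays.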
